A study of Mus musculus with 40 samples.

Results

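The cytosolic ribosomal protein genes were taken as all protein-coding mouse genes whose symbol starts with Rpl, Rps or Rack1, without the kinases of the Rps6k family, pseudogene symbols and 7 relatives of other function or tissue (Rpl3l, Rpl10l, Rpl22l1, Rpl7l1, Rpl39l, Rps19bp1 and Rps27l). The rule found 80 genes among the 56980 rows of the count table, 33 of the small and 47 of the large ribosomal subunit. Of these, 77 (32 small and 45 large) passed the filter on low counts and were tested. The count table held 2 ribosomal fusion genes outside the symbol rule. Of these, only Fau, which encodes a ribosomal protein fused to a ubiquitin-like sequence, is given separately.

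The ribosome reads messenger RNA with its small subunit and joins amino acids in its large subunit, and its proteins fold and hold the ribosomal RNA. The messenger RNAs of ribosomal proteins belong to the TOP class: they start with a run of pyrimidines at the cap, through which mTORC1 signalling and the binding protein Larp1 set how much of them is translated. In neurons they are also carried into dendrites and axons, where new protein is made near synapses.

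Polyadenylated RNA from brain tissue, named in the title of the series as medial prefrontal cortex, was sequenced in 40 libraries from female wild-type C57BL/6J mice, with 5 libraries in each of 8 groups. Mice started the experiment as adults on postnatal day 55 or as adolescents on postnatal day 25. Adults and adolescents alike were given oral antibiotics (Abx) or plain water (H2O), and were injected under the skin with morphine at 15 mg/kg or with saline for 5 days. The groups were adult Abx morphine, adult H2O morphine, adult Abx saline and adult H2O saline, and the same 4 in adolescents. Whether each library is a mouse of its own is not stated in the labels, and the p-values then speak only for the spread between libraries, which may be technical. Total counts were 8.64 to 12.1 M per library, and levels were scaled to a library of 1 M counts (CPM), so 3 counts stood for 0.25 to 0.346 CPM. Markers of excitatory cortical neurons summed to 6384 to 7852 CPM and markers of choroid plexus to 3.93 to 9.17 CPM. The scaling includes TMM factors, and a level compares libraries for 1 gene. Calls are adjusted p-values under 0.05 from edgeR's quasi-likelihood test with Benjamini-Hochberg adjustment over all 17880 genes tested, and fold changes are log2 values.

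The start of a ribosomal protein gene is where the pyrimidine run of its messenger RNA is encoded. The RefSeq promoter table (build GRCm38.p6) held 60 of the 80 genes, at 70 starts. An unbroken run of at least 8 C or T letters on the gene's strand, reaching into the 5 bases on either side of the annotated start, was present at 23 of these 70 starts (32.9%), against 3081 of all 32851 starts in the table (9.38%). Of the starts of genes called lower in adults over all treatments, 7 of 23 (30.4%) held the run, against 15 of 44 (34.1%) for genes tested and not called. The search covered the gene's own strand alone, and a match is a description of letters. The 6 windows below, each from 40 bases before to 20 bases from the annotated start, belong to genes whose values are given later and show starts with and without the run, which is in capitals. They lie at chr17:33955646-33955705 on the minus strand for Rps18, chr7:141447611-141447670 on the plus strand for Rplp2, chr11:114668540-114668599 on the plus strand for Rpl38, chr17:33824543-33824602 on the minus strand for Rps28, chr10:128549149-128549208 on the minus strand for Rpl41 and chr15:5116573-5116632 on the plus strand for Rpl37.
Rps18: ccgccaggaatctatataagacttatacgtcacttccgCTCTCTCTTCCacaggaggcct
Rplp2: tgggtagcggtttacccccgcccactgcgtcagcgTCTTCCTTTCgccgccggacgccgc
Rpl38: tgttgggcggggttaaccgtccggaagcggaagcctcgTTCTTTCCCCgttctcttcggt
Rps28: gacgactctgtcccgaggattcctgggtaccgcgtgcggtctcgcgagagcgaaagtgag
Rpl41: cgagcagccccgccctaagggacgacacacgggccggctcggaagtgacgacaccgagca
Rpl37: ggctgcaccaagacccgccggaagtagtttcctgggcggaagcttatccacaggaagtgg
The first 3 starts held runs of 11 bases in Rps18, 10 in Rplp2 and 10 in Rpl38. At the other starts, the longest runs reaching into the searched bases had 4 bases in Rps28, 3 in Rpl41 and 3 in Rpl37. Longer runs elsewhere in a window were not counted. No match says only that no run of at least 8 such letters reaches into the searched bases around this annotated start.

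Together the 80 genes took 0.738% to 1.01% of the counts of a library. Summed over the 80, the level was 8248 ± 586 CPM in adult Abx morphine, 8338 ± 780 in adult H2O morphine, 8420 ± 271 in adult Abx saline and 8954 ± 800 in adult H2O saline libraries (SD, n = 5 each). In adolescents it was 8571 ± 516 CPM in Abx morphine, 8743 ± 435 in H2O morphine, 9065 ± 400 in Abx saline and 8982 ± 686 in H2O saline libraries (SD, n = 5 each). All 20 adult libraries lay between 7384 and 10017 CPM with a median of 8367, and the 20 adolescent libraries between 7696 and 10084 CPM with a median of 8715, so the ages overlapped over most of their range. In Abx saline the adult libraries had 8148 to 8737 CPM, against 8580 to 9596 CPM in adolescents, and these overlapped as well. Of single libraries, adult H2O morphine replicate 4 had 9522 CPM beside 7581 to 8601 in the other 4, and adolescent Abx morphine replicate 1 had 7696 CPM beside 8612 to 8991. No test was made on the sum.

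**Figure D1:**
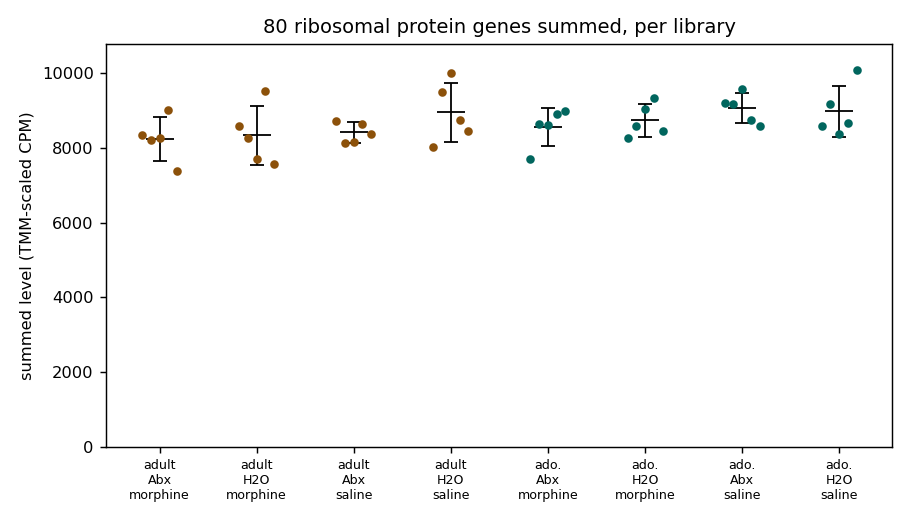
Summed level of the 80 ribosomal protein genes (TMM-scaled CPM, vertical axis from 0) in each of the 40 libraries, by group (adult in brown, adolescent in green; ado., adolescent). Points are libraries, and the bar and whiskers are the mean and SD of 5. The libraries lie between 7384 and 10084 CPM and the groups overlap.

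Levels differed widely between the genes. Per kilobase of annotated transcript, the 77 tested genes ranged over 2.93 to 491 CPM with a median of 116. Rplp1, an acidic protein of the stalk that recruits elongation factors, was highest at 491 ± 52.2 CPM per kilobase (SD over 40 libraries). Rps15, a small subunit protein, had 334 ± 29.2, and Rpl41, the shortest ribosomal protein, had 266 ± 50.8 CPM per kilobase. The lowest library of Rplp1 (379) lay under the highest of Rps15 (400), and Rps15 and Rpl41 overlapped as well, so this order holds for means and not in each library. At the low end were Rpl13a at 2.93 ± 0.927 and Rps27rt, an intron-free copy of Rps27, at 3.07 ± 1.12 CPM per kilobase. Next was Rps15a at 17.9 ± 1.01, but its place follows the annotation: with its shortest principal transcript (640 nt in place of 5179 nt) it had 145 CPM per kilobase and ranked 33 of 77.

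Rpl13a is often used as a reference gene for quantitative PCR, and here it was read at 1.39 to 5.33 CPM in the 40 libraries. The 3 genes that missed the filter were Rps10, Rpl24 and Rpl36al, with 137, 45 and 81 counts over all 40 libraries and at most 0.94, 0.562 and 0.758 CPM in any library. The other 75 genes had a mean of 20 CPM or more. The table also holds 301 rows of ribosomal pseudogenes, which summed to 57.5 to 89.7 CPM per library. Ribosomal protein genes have near-identical processed copies in the genome, and the sources used here do not say how reads that match several places were counted, nor whether strand was used, so low levels and values of single genes are uncertain to that extent.

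Several members are known for roles of their own, and their group means are given whatever their test. Rps6, the protein phosphorylated by S6 kinase and used as a readout of mTORC1 activity, had group means between 96.8 ± 7.55 CPM in adolescent Abx morphine and 107 ± 5.05 CPM in adolescent H2O saline (SD, n = 5 each). Rack1, a signalling scaffold on the small subunit, had group means between 105 ± 9.4 CPM in adult H2O morphine and 116 ± 8.34 CPM in adult H2O saline (SD, n = 5 each). Rps27a, made as a fusion with ubiquitin, lay between 82.5 ± 7.75 CPM in adult H2O morphine and 92.8 ± 7.73 CPM in adolescent Abx saline (SD, n = 5 each). Rpl22, which has a paralog that replaces it in some cells, lay between 53.2 ± 5.76 CPM in adult H2O morphine and 61.0 ± 4.17 CPM in adolescent Abx saline (SD, n = 5 each). None of these 4 genes was called in any of the 19 comparisons by edgeR with TMM scaling on all 40 libraries. With edgeR scaled by library totals alone, Rpl22 was called lower in adults over all treatments (-0.117, adjusted p = 0.0336). Rps27a was called lower with morphine over all groups in that fit (-0.121, adjusted p = 0.0394). Rpl39, a short protein that lines the exit tunnel, had group means between 22.2 ± 3.35 CPM in adult Abx morphine and 34.0 ± 6.23 CPM in adolescent Abx saline (SD, n = 5 each). Rpl41 lay between 125 ± 13.9 CPM in adult Abx saline and 186 ± 15.9 CPM in adolescent Abx saline (SD, n = 5 each). Rpl13a, near the filter, lay between 2.04 ± 0.571 CPM in adult Abx morphine and 3.96 ± 0.854 CPM in adolescent Abx saline (SD, n = 5 each).

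Of the comparisons made, age gave the most calls among ribosomal protein genes. Over all treatments, 20 adult against 20 adolescent libraries, 26 of 77 members (33.8%) were called lower in adults and 0 higher (15 lower and 10 higher with an offset for gene length and GC content), while 17.9% of all genes tested were called and 8.57% were called lower. The members' median log2 fold change was -0.075, against 0.008 for all genes tested, and 56 of 77 were below 0. Both subunits took part, with 11 of 32 small subunit genes (median -0.065) and 15 of 45 large subunit genes (median -0.084) called lower. The differences were small: the members ranged from -0.47 to 0.08.

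Of the small subunit, Rps18, a protein of the head that contacts transfer RNA, had a lowest, median and highest level of 64.5, 74.0 and 95.0 CPM in adults, against 75.6, 86.8 and 98.1 CPM in adolescents. Its log2 fold change was -0.22 (SE 0.04, adjusted p = 2.34e-05). Rps28, at the exit of the messenger RNA channel, had 22.1, 29.9 and 43.6 CPM in adults, against 26.4, 38.6 and 49.6 CPM in adolescents (-0.36, SE 0.06, adjusted p = 4.7e-05). Rps2, at the entry of that channel, had 169, 206 and 241 CPM in adults, against 209, 224 and 282 CPM in adolescents (-0.18, SE 0.04, adjusted p = 0.00014). Rps29, a zinc-binding protein of the head, had the largest difference, with 38.6, 57.3 and 87.4 CPM in adults, against 44.6, 85.3 and 117 CPM in adolescents (-0.47, SE 0.08, adjusted p = 0.000152). In each of these 4 genes the adult median lay below the adolescent one, and single libraries of the ages overlapped.

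Of the large subunit, the stalk protein Rplp2 had a lowest, median and highest level of 57.0, 70.2 and 90.5 CPM in adults, against 69.5, 82.2 and 95.2 CPM in adolescents (log2 fold change -0.20, SE 0.04, adjusted p = 0.000143). Rpl37, a zinc-binding protein, had 61.7, 76.1 and 98.3 CPM in adults, against 67.0, 91.5 and 115 CPM in adolescents (-0.27, SE 0.05, adjusted p = 0.000263). Rpl41 had 106, 133 and 189 CPM in adults, against 125, 170 and 219 CPM in adolescents (-0.32, SE 0.06, adjusted p = 0.000339). Rpl29, whose loss in mice slows growth, had 111, 135 and 171 CPM in adults, against 137, 157 and 187 CPM in adolescents (-0.19, SE 0.04, adjusted p = 0.00039). The ages overlapped in single libraries of each of these 4 genes too. The stalk base Rplp0 was called at -0.11 (SE 0.03, adjusted p = 0.0144), with 116, 137 and 161 CPM in adults, against 139, 147 and 183 CPM in adolescents.

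Among the other called members were Rpl38, Rpl23, Rpl19, Rpl18, Rps9, Rpl11, Rpl36, Rps20, Rps13, Rpl39, Rpl7a, Rps16, Rpl37a, Rps23, Rps21 and Rpl9. Of the 26 calls, 22 held without any single library. The call of Rps23 was lost without 1 of the 40 libraries, that of Rpl37a without 4, that of Rps21 without 10 and that of Rpl9 without 15, at adjusted p-values of at most 0.0744. The direction of the calls did depend on the fit. With the offset for gene length and GC content, 15 of the 26 stayed called lower and 10 other members were called higher in adults, among them Rps7 at 0.12 (adjusted p = 0.00567), Rpl6, Rps3a1, Rpl26, Rpl7, Rpl12, Rpl4 and Rps25. With 3 surrogate variables, 8 of the 26 stayed called lower and 7 others were called higher, all 7 among the 10. The members' median was -0.02 with the offset and -0.002 with the surrogate variables. The 8 genes given above with the smallest p (Rps18, Rps28, Rps2, Rplp2, Rps29, Rpl37, Rpl41 and Rpl29) were called lower in both fits. Under library totals 32 members and under DESeq2 29 were called, all lower. In bulk tissue, fewer cells of a type with many ribosomes and fewer of these messenger RNAs per cell cannot be told apart. Differences in RNA quality between the libraries were not tested.

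The age contrast was then read within each treatment, 5 adult against 5 adolescent libraries. It was largest in mice given Abx and saline, where 18 of 77 members (23.4%) were called lower in adults and 0 higher (12 lower and 3 higher with the offset for gene length and GC content). Of all genes tested, 5.97% were called there and 3.18% were called lower. The members' median was -0.14, against 0.01 for all genes tested. The 18 called were 7 of 32 small subunit genes (median -0.127) and 11 of 45 large subunit genes (median -0.157).

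Rps29 had 49.5, 44.7, 38.6, 56.1 and 42.9 CPM in adult Abx saline libraries, against 99.0, 91.5, 117, 87.9 and 89.8 CPM in adolescent Abx saline libraries. No library of 1 age reached the other, and the log2 fold change was -1.07 (SE 0.17, adjusted p = 0.00016). Rps28 had 29.1, 24.1, 22.1, 28.3 and 25.1 CPM in adult Abx saline libraries, against 48.5, 46.6, 49.6, 38.0 and 37.8 CPM in adolescent ones (-0.78, SE 0.12, adjusted p = 0.000131). Its groups did not overlap either. Rps18 had 70.6, 68.5, 65.7, 73.9 and 74.0 CPM in adults, against 98.1, 91.9, 96.0, 86.8 and 86.8 CPM in adolescents (-0.38, SE 0.07, adjusted p = 0.000771). Rps13, another small subunit protein, had 55.3, 48.2, 48.3, 61.2 and 56.8 CPM in adults, against 66.6, 67.1, 68.8, 67.2 and 66.4 CPM in adolescents (-0.32, SE 0.07, adjusted p = 0.00522). In both genes every adult library lay below every adolescent one.

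Rplp2 had 66.9, 66.2, 60.6, 66.1 and 63.4 CPM in adult Abx saline libraries, against 86.2, 95.0, 91.3, 85.1 and 84.4 CPM in adolescent ones (log2 fold change -0.45, SE 0.08, adjusted p = 0.00016). Rpl38, a large subunit protein whose loss in mice disturbs the translation of Hox messenger RNAs, had 63.2, 55.8, 38.9, 58.2 and 50.6 CPM in adults, against 98.0, 94.7, 109, 78.6 and 83.4 CPM in adolescents (-0.80, SE 0.16, adjusted p = 0.00212). Rpl37 had 86.0, 70.5, 61.7, 72.7 and 71.2 CPM in adults, against 100, 108, 115, 95.8 and 90.6 CPM in adolescents (-0.49, SE 0.10, adjusted p = 0.00348). Rpl41 had 140, 127, 112, 136 and 109 CPM in adults, against 201, 191, 198, 171 and 167 CPM in adolescents (-0.57, SE 0.12, adjusted p = 0.00494). In all 4 genes the ages were separate in this treatment. The genes described for Abx saline, Rps13 and Rpl37 included, were named for a small p in this comparison, so their separation goes with that choice.

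**Figure D2:**
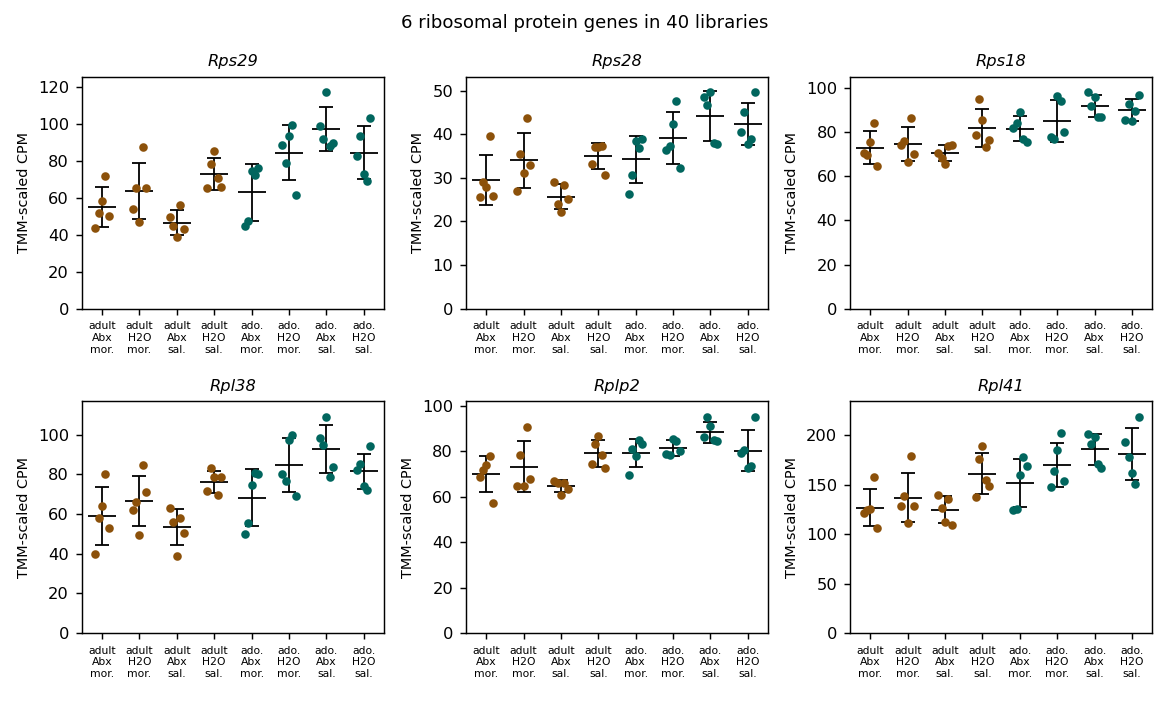
Level (TMM-scaled CPM, vertical axes from 0) of Rps29, Rps28, Rps18, Rpl38, Rplp2 and Rpl41 in the 40 libraries, by group (adult in brown, adolescent in green; ado., adolescent; mor., morphine; sal., saline). Points are libraries, and the bar and whiskers are the mean and SD of 5. For each gene the adult Abx saline libraries lie below all adolescent Abx saline libraries, as in Rps29 with 38.6 to 56.1 against 87.9 to 117 CPM. The genes shown are among those with the smallest p in that comparison, so this separation goes with the choice.

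The 10 further members called in Abx saline included Rpl19, Rpl23, Rps23, Rpl11, Rpl29, Rps16, Rpl39, Rpl36 and Rpl13a. All 18 but Rpl13a were also called over all treatments, a comparison that holds the same libraries. Of the 18 calls, 12 held without any single library, among them those of the 8 genes described and of Rpl19, Rpl23 and Rps23. The other 6 calls were lost without 2 to 7 of the 10 libraries, with an adjusted p of up to 0.173 for Rpl13a. With the offset for gene length and GC content, 12 of the 18 stayed called lower, the 8 described among them, and 3 others, among them Rps7 and Rpl6, were called higher in adults. With 3 surrogate variables 6 of the 18 stayed called lower, and 2 others, among them Rps7, were called higher, while Rpl41 had an adjusted p of 0.0516 and Rps13 one of 0.0602. The members' median was -0.042 with the offset and -0.049 with the surrogate variables.

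In the other treatments 0 members were called for age. In H2O saline the members' median was -0.006, with 2 members at an unadjusted p under 0.05, while 0.257% of all genes were called. In H2O morphine it was -0.086 with 12 such members, while 0.928% of all genes were called, and in Abx morphine -0.061 with 6 such members, while 1.04% were called. Among all 17880 genes tested, 1788 had an unadjusted p under 0.05 in H2O saline, 2549 in H2O morphine and 2644 in Abx morphine. DESeq2 called 0 members in all 3, and limma-voom called 2 in H2O morphine and 0 in the others. Without adult H2O morphine replicate 4, the library with the high sum, edgeR called 4 members in H2O morphine: Rps2, Rpl37, Rpl18 and Rpl32. The members with the smallest p on either side of 0 were Rps15a at 0.11 (adjusted p = 0.504) and Rps2 at -0.19 (adjusted p = 0.301) in H2O saline. In H2O morphine they were Rpl4 at 0.08 (adjusted p = 0.535) and Rps2 at -0.21 (adjusted p = 0.13), and in Abx morphine Rps15a at 0.08 (adjusted p = 0.546) and Rpl29 at -0.21 (adjusted p = 0.162).

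Whether the age contrast differed between Abx and H2O in saline was tested directly, in a comparison added after the age calls had been seen. It called 0 of 77 members by edgeR and by limma-voom and 2 by DESeq2 (Rps13 and Rplp2), with 19 at an unadjusted p under 0.05, while 0.0224% of all genes were called. Such a p was found for 1801 of all 17880 genes tested. The members' median for this difference was -0.117, against 0.009 for all genes tested. Rps13 came nearest at -0.44 (SE 0.10, adjusted p = 0.0828), and it was called without adult Abx saline replicate 4. With no filter on low counts, edgeR called 3 members for this difference: Rplp2 at -0.44 (adjusted p = 0.0171), Rps13 at -0.45 (adjusted p = 0.0202) and Rps28 at -0.51 (adjusted p = 0.0425). Whether a member passed the threshold for this difference thus depended on the filter and the tool. The same difference under morphine called 0 members by edgeR, DESeq2 and limma-voom, with 0 at an unadjusted p under 0.05 and 0.00559% of all genes called, and its median was 0.022, with Rpl15 at 0.13 (adjusted p = 0.881). Under morphine 1010 of all genes had an unadjusted p under 0.05 for this difference.

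**Figure D3:**
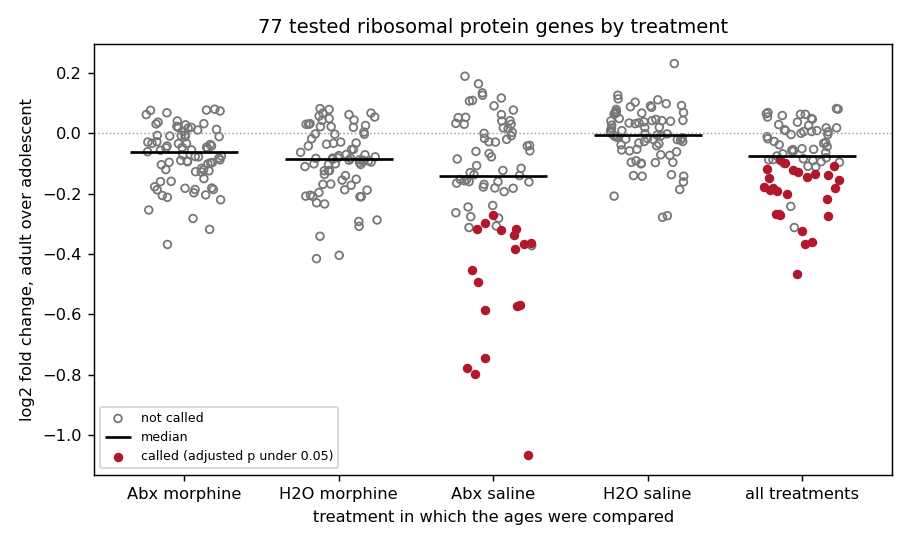
Log2 fold change of the 77 tested ribosomal protein genes, adult over adolescent (vertical axis), in each treatment and over all treatments. Points are genes, filled where called (adjusted p under 0.05), and bars are medians. By edgeR, 18 genes are called in Abx saline and 26 over all treatments, all lower in adults, and 0 in the other 3 columns. With an offset for gene length and GC content, which is not plotted, 3 genes in Abx saline and 10 over all treatments are called higher in adults.

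Within the family the age difference went with the length of the transcript. Over the 77 members, log2 fold changes of the age contrast over all treatments had a Spearman correlation of 0.457 with the length of the longest annotated principal transcript and of 0.439 with that of the shortest. In Abx saline the correlations were 0.517 and 0.475. These describe genes that share the same libraries and carry no test. Over all treatments, members under 600 nt had a median of -0.15 with 10 of 18 called lower, members of 600 to 1000 nt -0.071 with 10 of 30, and members of 1000 nt or more -0.011 with 6 of 29. The other protein-coding genes tested showed the same order: medians were -0.131 with 44 of 138 called lower under 600 nt, -0.121 with 183 of 561 at 600 to 1000 nt, and 0.01 with 1122 of 13376 at 1000 nt or more. In Abx saline the members' medians were -0.314, -0.138 and -0.04 in the 3 length classes, with 8 (44.4%), 7 (23.3%) and 3 (10.3%) called lower. The other protein-coding genes had medians of -0.268, -0.208 and 0.011, with 34 (24.6%), 105 (18.7%) and 356 (2.66%) called lower. At 600 to 1000 nt the share of members called lower was near that of other genes, both in Abx saline and over all treatments (33.3% of members and 32.6% of other genes). The level of a member also went with its fold change, with a Spearman correlation of 0.546 over all treatments. The length classes were chosen after the calls had been seen.

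**Figure D4:**
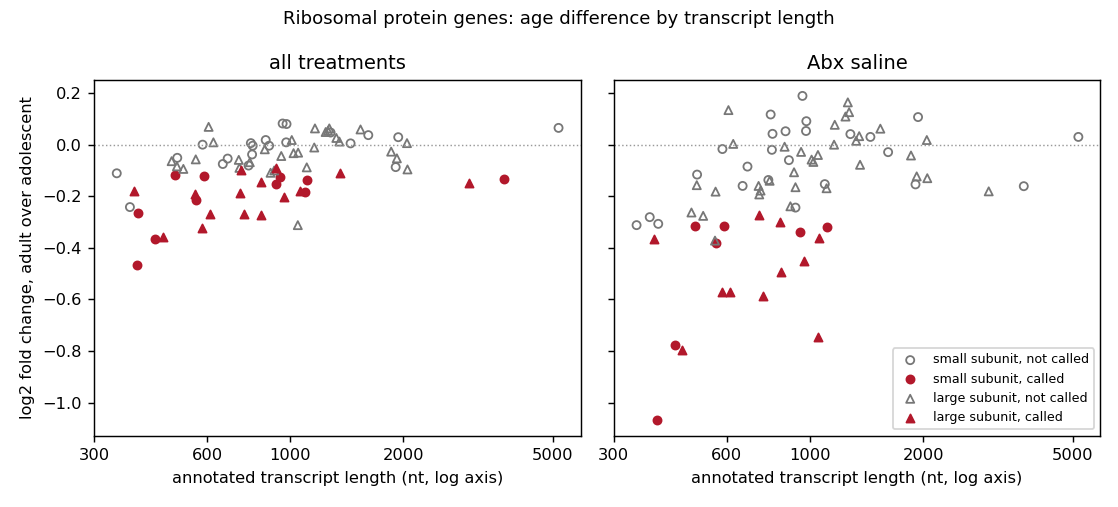
Log2 fold change, adult over adolescent, of the 77 tested ribosomal protein genes against annotated transcript length (log axis), over all treatments (left) and in Abx saline (right). Circles are small and triangles large subunit genes, filled where called. The called genes gather at short lengths, with 10 of 18 members under 600 nt called over all treatments and 6 of 29 of 1000 nt or more.

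Abx against H2O was tested at each age and injection and over all groups. Over all groups 3 of 77 members (3.9%) were called, all lower with Abx, while 7.5% of all genes were called. The members' median was -0.038, against -0.004 for all genes tested. Rpl23a, a protein at the exit of the peptide tunnel, had a lowest, median and highest level of 96.1, 114 and 132 CPM in Abx libraries, against 103, 126 and 146 CPM in H2O libraries (log2 fold change -0.12, SE 0.04, adjusted p = 0.0232). Rps29 had 38.6, 57.3 and 117 CPM with Abx, against 47.1, 75.5 and 103 CPM with H2O (-0.27, SE 0.08, adjusted p = 0.0408). Rps28 had 22.1, 29.9 and 49.6 CPM with Abx, against 26.9, 37.2 and 49.6 CPM with H2O (-0.20, SE 0.06, adjusted p = 0.0445). All 3 overlapped between the drinks, and none of the 3 calls held without every single library. That of Rpl23a was lost without any 1 of 5 libraries (adolescent Abx morphine replicate 1, adult H2O morphine replicates 1 and 4, and adult H2O saline replicates 2 and 3), that of Rps29 without any 1 of 27 and that of Rps28 without any 1 of 34, at adjusted p-values of up to 0.093. The count was 0 without any 1 of 4 libraries and 4 without adult Abx morphine replicate 4, and it was 1 on library totals. None of the 3 was called with 3 surrogate variables (adjusted p = 0.0643 for Rpl23a, 0.132 for Rps29 and 0.142 for Rps28).

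Within an age and injection, Abx called 0 members. In adult saline mice, 26 of 77 had an unadjusted p under 0.05 and the median was -0.095, while 0.0503% of all genes were called. Such a p was found for 1803 of all 17880 genes tested. The members' fold changes had a Spearman correlation of 0.511 with the length of the longest annotated principal transcript. With the offset for gene length and GC content the members' median was -0.042. Whether this shift is particular to the members was not tested. The members with the smallest p were Rplp2 at -0.29 (adjusted p = 0.135) and, among those above 0, Rpl12 at 0.11 (adjusted p = 0.621). Rps29, added here after its values were seen, had 49.5, 44.7, 38.6, 56.1 and 42.9 CPM in adult Abx saline, against 65.0, 78.0, 85.0, 70.7 and 65.8 CPM in adult H2O saline libraries. These groups did not overlap, and the log2 fold change of -0.65 (SE 0.17) had an adjusted p of 0.138 in edgeR. DESeq2 called Rps29 as its 1 member, among 52 of all genes, and limma-voom called 0 members. In adolescent saline mice the median was 0.029, with 1 member and 1744 of all genes at an unadjusted p under 0.05. DESeq2 and limma-voom called 0 members there, while 0.0391% of all genes were called by edgeR. The genes with the smallest p were Rps13 at 0.22 (adjusted p = 0.279) and Rps2 at -0.09 (adjusted p = 0.708).

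In adolescents under morphine, where 7.56% of all genes were called for Abx, edgeR called 0 members, with 8 at an unadjusted p under 0.05. Such a p was found for 4119 of all 17880 genes tested, a larger share than among the members. DESeq2 called 0 members and limma-voom 2 (Rps29 and Rpl23a), and the members' median was -0.034. Rps29 was at -0.42 (adjusted p = 0.108). Without adolescent H2O morphine replicate 4, or without adolescent Abx morphine replicate 1, edgeR called 1 member. In adults under morphine 0.028% of all genes were called, and 0 members were called by edgeR, DESeq2 and limma-voom or had an unadjusted p under 0.05. Such a p was found for 1434 of all genes. The members' median there was -0.02, with Rpl34 at -0.13 (adjusted p = 0.675) and Rpl3 at 0.07 (adjusted p = 0.797).

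Morphine against saline, over all groups, called 1 of 77 members (1.3%), while 4.35% of all genes were called. This was Rpsa, a small subunit protein also known as a laminin receptor. Rpsa had a lowest, median and highest level of 198, 231 and 280 CPM in morphine libraries, against 228, 245 and 299 CPM in saline libraries (log2 fold change -0.13, SE 0.04, adjusted p = 0.0255). The injections overlapped, and the call held without any single library but not with 3 surrogate variables (adjusted p = 0.251). Of the 77 members, 76 had a log2 fold change below 0 and 21 an unadjusted p under 0.05, with a median of -0.061, against 0.003 for all genes tested. An unadjusted p under 0.05 was found for 3153 of all 17880 genes tested. Members share their libraries, so 76 of 77 is a description of these 40 libraries. Without adult H2O morphine replicate 4, edgeR called 8 members, all lower with morphine, among them Rpsa, Rpl10, Rps27a, Rpl9, Rpl31 and Rpl37.

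In adolescents on Abx, morphine called 1 of 77 members (1.3%), while 2.92% of all genes were called. Rps29 had 44.6, 47.4, 74.5, 72.4 and 75.8 CPM in adolescent Abx morphine, against 99.0, 91.5, 117, 87.9 and 89.8 CPM in adolescent Abx saline libraries. No library of 1 group reached the other, and the log2 fold change was -0.63 (SE 0.16, adjusted p = 0.0289). Rps29 is named here for its call, so this separation goes with that choice. The call was lost without adolescent Abx saline replicates 1 or 3 and without adolescent Abx morphine replicates 1 or 2, with adjusted p-values of 0.0655, 0.105, 0.0977 and 0.132. It was also lost with 3 surrogate variables (adjusted p = 0.161). A fit of these groups alone called Rpl19 and Rpl37, both lower with morphine, and not Rps29. The members' median was -0.084, against -0.005 for all genes tested. Limma-voom called 8 members, all lower, and DESeq2 called 1.

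The other tests of morphine called 0 members. In adolescents on H2O, 0.319% of all genes were called and the members' median was -0.031, with 0 members at an unadjusted p under 0.05 and 0 called by DESeq2 and limma-voom. In adults on H2O, 0.475% of all genes were called and the median was -0.111, with 75 of 77 members below 0, 14 at an unadjusted p under 0.05 and 0 called by DESeq2 and limma-voom. The members' fold changes in adults on H2O had a Spearman correlation of 0.306 with the length of the longest annotated principal transcript. With the offset for gene length and GC content their median was -0.073. Whether this shift is particular to the members was not tested. Rps13 was at -0.19 (adjusted p = 0.294) there and Rpl5, which binds Mdm2 when ribosome assembly is disturbed, at 0.03 (adjusted p = 0.911). Rpl11, a partner of Rpl5, was called there without adult H2O morphine replicate 4. In adults on Abx, 0.213% of all genes were called and the median was -0.024, with 3 members at an unadjusted p under 0.05 and 0 called by DESeq2 and limma-voom. Among all 17880 genes tested, 2400 had such a p in adolescents on H2O, 1978 in adults on H2O and 1258 in adults on Abx. Rpsa was at -0.12 (adjusted p = 0.457) in adolescents on H2O and at -0.21 (adjusted p = 0.408) in adults on Abx, where Rpl11 was at 0.13 (adjusted p = 0.809), while Rpl13a was at 0.17 (adjusted p = 0.771) in adolescents on H2O.

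The interaction of Abx and morphine called 0 members at either age. In adolescents 1.24% of all genes were called and the members' median was -0.049, with 6 members at an unadjusted p under 0.05, 0 called by DESeq2 and 1 (Rps29) by limma-voom. Such a p was found for 3027 of all 17880 genes tested, a larger share than among the members. Rps29 was at -0.63 (adjusted p = 0.156). In adults 0% of all genes were called by edgeR, 1 gene each by DESeq2 and limma-voom, and 1214 genes had an unadjusted p under 0.05. The members' median was 0.088, with 4 members at an unadjusted p under 0.05 and 0 called by DESeq2 and limma-voom. Rpl11 was at 0.33 (adjusted p = 0.529) and Rpl12 at -0.15 (adjusted p = 0.802). At each age the comparisons of Abx and of morphine share groups of libraries, so their values are set side by side and are not independent.

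Other lists of genes of translation were read beside the family in the age contrast over all treatments. Of 77 tested mitochondrial ribosomal proteins, which build a separate ribosome inside mitochondria, 19 were called lower in adults and 1 higher, with a median of -0.084. Mrpl41 was at -0.25 (adjusted p = 0.000339), Mrpl12 at -0.21 and Mrpl4 at -0.18. Of 84 tested nuclear-encoded genes of the respiratory chain, 56 were called lower and 1 higher, with a median of -0.166, led by Cox5b at -0.43 (adjusted p = 2.92e-08), Ndufa2 at -0.39 and Uqcr11 at -0.54. Of the 13 respiratory chain genes encoded in mitochondrial DNA, 4 were called higher and 0 lower, such as mt-Nd5 at 0.23 (adjusted p = 0.00307), with a median of 0.075. With the offset for gene length and GC content, 13 mitochondrial ribosomal proteins and 44 respiratory chain genes were called lower and 0 and 2 higher, and with 3 surrogate variables 7 and 26 lower and 3 and 1 higher. In Abx saline 12 of the 77 mitochondrial ribosomal proteins (median -0.148) and 45 of the 84 respiratory chain genes (median -0.278) were called lower, among them Atp5k at -1.27 (adjusted p = 1.52e-05).

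Genes that share the TOP class or serve translation without being ribosomal proteins were counted in the same contrast, with no test of a difference from the members. In that contrast 17.9% of all genes tested were called and 8.57% were called lower. Of 20 other TOP genes, 2 were called higher in adults over all treatments and 0 lower, with a median of 0.027 (0.006 on library totals, with 1 called higher and 1 lower). These were the elongation factors Eef1a1 at 0.11 (adjusted p = 0.00453) and Eef1g at 0.09 (adjusted p = 0.027). Of 45 ribosome biogenesis factors 8 were called higher, among them Mdn1 at 0.20 (adjusted p = 0.00158), and 3 lower, with a median of 0.033. Of 35 initiation factors 3 were called higher, such as the cap-binding Eif4e at 0.16 (adjusted p = 0.000112), and 5 lower, such as Eif4h at -0.15 (adjusted p = 4.39e-05), with a median of 0.02. Of 12 elongation and release factors, 3 were called higher and 1 lower. In the list of control genes, Mtor at 0.14 (adjusted p = 0.000979), Larp1 at 0.10 (adjusted p = 0.0155) and Rptor at 0.085 (adjusted p = 0.0391) were called higher. On library totals, 2 of the 17 in this list were called higher and 1 lower. The fusion gene Fau was at -0.09 (adjusted p = 0.124), and of 4 tested relatives left out by the rule, Rpl22l1 was called at -0.27 (adjusted p = 0.016).

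Markers of cells of the oligodendrocyte lineage moved with age too. Of 12 oligodendrocyte markers 9 were called lower in adults and 0 higher, and their sum was 855, 1213 and 1647 CPM (lowest, median, highest) in adults, against 1208, 1533 and 2283 CPM in adolescents. Of 10 markers of oligodendrocyte precursors 7 were called lower and 0 higher, with sums of 246, 281 and 389 CPM in adults, against 295, 330 and 458 CPM in adolescents. Of 5 red blood cell markers 3 were called higher in adults. In Abx saline, where the members' age difference was largest, 1 of the 12 oligodendrocyte markers and 1 of the 10 precursor markers were called lower. Age calls for the markers of microglia, endothelial cells, astrocytes and neurons are not given here. Nor are calls of the cell markers with the offset or the surrogate variables. The part of any of these cells in the members' values was not tested.

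**Figure D5:**
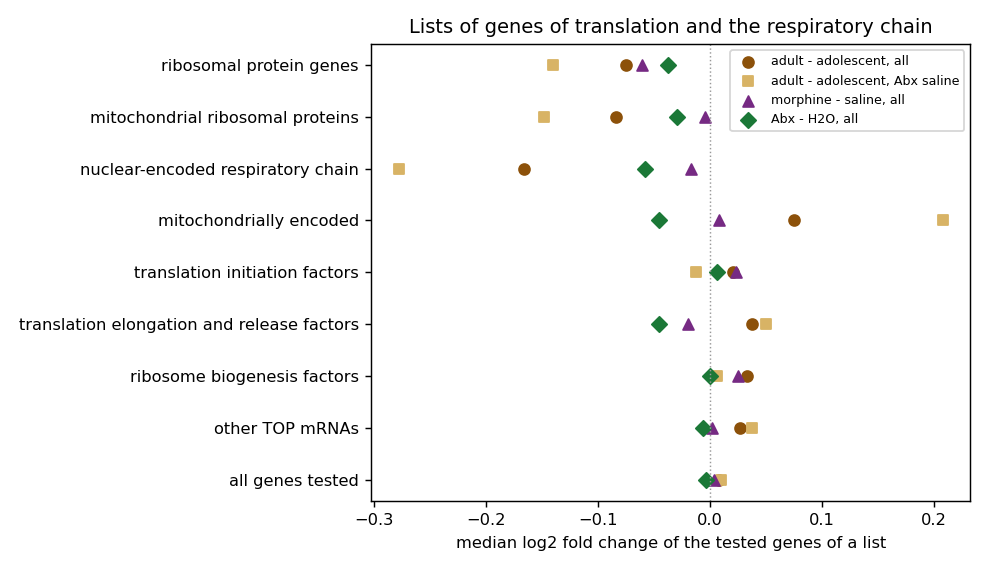
Median log2 fold change (horizontal axis) of the tested genes of 8 lists and of all genes tested, in 4 comparisons given in the legend. The ribosomal protein genes lie at -0.075 over all treatments and -0.14 in Abx saline in the age comparisons, near the mitochondrial ribosomal proteins at -0.084 and -0.148, while the other TOP genes lie at 0.027 and 0.037.

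Within groups the members moved together from library to library. After group means were removed, the 2926 pairs of members had a median Pearson correlation of log2 CPM of 0.598 over the 40 libraries, from -0.156 to 0.904. Each member correlated with the mean of the others at 0.273 to 0.928, with Rpl31 highest and Rpl15, Rps27rt and Rps15a lowest. The genes outside the family most like its mean were Mt3 (0.863), a metallothionein of astrocytes and neurons, Tlcd1 (0.862), Cox4i1 (0.859), a subunit of cytochrome oxidase, Dbi (0.854), Tmsb4x (0.845), Selenow (0.834), Gstm1 (0.813), Cst3 (0.813), Rex1bd (0.812) and Mt1 (0.803). The mean of the respiratory chain list followed the members at 0.686, that of microglia markers at 0.646, that of mitochondrial ribosomal proteins at 0.639 and that of excitatory neuron markers at -0.564, while that of the other TOP genes was at 0.479. Markers of oligodendrocyte precursors were at 0.63, of endothelial cells at 0.58 and of astrocytes at 0.527. Lower were inhibitory neurons at 0.424, oligodendrocytes at 0.208, mural cells and fibroblasts at 0.197, red blood cells at 0.171 and striatal neurons at -0.031. All of these share the 40 libraries and their depth, composition and RNA quality, and they are given as descriptions without a test.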

How the data were processed

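The authors deposited whole-number read counts per Ensembl gene, 1 column per library, with no normalization; per the submitters' processing notes STAR 2.7.10a, DESeq2 and the mouse build mm10 were used, without their settings. The annotation used for counting was not stated: 52073 of the 56980 IDs matched the reference without their version and 35 with it, so symbols and lengths come from another annotation release than the counts. The members and gene lists were chosen with earlier results of these data known.

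All 40 libraries were fitted together in R 4.3.3 with edgeR 4.0.16 (quasi-likelihood test, TMM, robust, 1 coefficient per group), after filterByExpr (count at least 10, total at least 15). Adjustment was by Benjamini-Hochberg over 17880 genes, and the biological coefficient of variation was 9.14%. The smallest counting step is the 3-count level given in the report, which covers counting error only. DESeq2 1.42.0, limma 3.58.1 (voom with quality weights), sva 3.50.0 (3 surrogate variables), other scalings and filters, an offset for gene length and GC content, only the groups compared, a replicate block and each library left out were alternatives. The age difference of Abx in saline, the length classes, the settings for the summed level and the refits of the other lists were added after the data had been seen. The fits were checked on simulated data. Replicate numbers were not used to pair libraries, since same-numbered libraries of an age had correlations of their deviations of -0.158 to 0.205, with a median of 0.006.

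Named were a set list of members (Rps6, Rps27a, Rack1, Rplp0, Rpl13a, Rpl22, Rpl41 and Rpl39) and the 3 highest and 3 lowest per length. For each comparison up to 8 called members in each direction by smallest p were named, or, with none called, 1 above and 1 below 0. Some members are not reported by name here, so lists of called members may be shorter than their counts.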

Additional observations from a re-analysis of the deposited data

Results flagged for a closer look

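Of 256 sets of 5 libraries (32 quantities in 8 groups), 9 held a library far from the other 4, with a gap over 0.71 of the whole range; chance flags about 1 in 20. Rps28 was highest in adult Abx morphine replicate 4 at 39.5 CPM, beside 25.6 to 29.0 CPM in the other 4, and Rpl34 was lowest in replicate 5 of that group at 58.7 CPM, beside 67.5 to 69.6 CPM. Rps27rt was highest in adult Abx saline replicate 1 at 2.16 CPM, beside 0.732 to 0.865 CPM, and Rpl15 in adult H2O saline replicate 2 at 123 CPM, beside 104 to 109 CPM. Rpl4, a large subunit protein, was lowest in adolescent Abx morphine replicate 1 at 292 CPM, beside 329 to 339 CPM, and highest in adolescent H2O morphine replicate 4 at 330 CPM, beside 305 to 311 CPM. Rps6 was highest in that same library at 115 CPM, beside 103 to 106 CPM, and in adolescent H2O saline replicate 5 at 116 CPM, beside 103 to 105 CPM. Rpl29 was highest in adolescent H2O saline replicate 5 at 187 CPM, beside 151 to 160 CPM.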

How the results depend on the processing

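Counted in both directions together, the age calls kept their number within 1.5 times under every setting but the surrogate variables. Those called 15 in place of 26 over all treatments and 8 in place of 18 in Abx saline. Calls lower in adults fell from 26 to 15 over all treatments with the offset, and to 8 with the surrogate variables. In Abx saline they fell from 18 to 12 with the offset. Calls higher in adults came with the offset for gene length and GC content (10 over all treatments, 3 in Abx saline) and the surrogate variables (7 and 2), and with no other setting. With 1 library left out, the count was 23 to 36 over all treatments and 12 to 21 in Abx saline.

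For morphine in adolescents on Abx, in place of 1 called member there were 4 with no filter on low counts, 8 with limma-voom, 0 with surrogate variables, 2 with the offset and 2 with only the groups compared, and 0 to 1 with 1 library left out. For Abx under morphine in adolescents, in place of 0 there were 2 with no filter, 2 with limma-voom, 1 with surrogate variables, 1 with the offset and 2 with only the groups compared, and 0 to 1 with 1 library left out. The adolescent interaction had 1 with limma-voom. Abx in adult saline mice had 2 with no filter, 1 with DESeq2 and 2 with only the groups compared. Age in H2O morphine had 1 with no filter, 2 with limma-voom and 0 to 4 with 1 library left out, and morphine in adults on H2O had 0 to 1. For morphine over all groups, in place of 1 there were 3 on library totals, 2 with no filter, 2 with DESeq2, 5 with limma-voom, 0 with surrogate variables and 1 to 8 with 1 library left out. For Abx over all groups, in place of 3 there were 1 on library totals, 0 with surrogate variables and 0 to 4 with 1 library left out. The age difference of Abx in saline had 3 with no filter, 2 with DESeq2 and 0 to 1 with 1 library left out. Limma-voom also called more of all genes: 1227 in place of 522 for morphine in adolescents on Abx. For Abx under morphine in adolescents it called 2638 in place of 1351, and for morphine over all groups 1089 in place of 778. The cause of these changes was not tested. The replicate block, which rests on numbers that do not pair the libraries, called 26 members for age over all treatments, 20 in Abx saline and 2 for morphine over all groups.

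Among single genes, Rpl5 under morphine in adults on H2O turned to -0.01 on library totals and ranged from -0.022 to 0.047 with 1 library left out, and Rps15a for age in Abx morphine turned to -0.002 with the offset. The 3 comparisons over all groups use all libraries, so no fit with only the groups compared was made for them. At this depth, members near the filter, such as Rpl13a and Rps27rt, rest on few counts.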
